A study of Mus musculus with 18 samples.

Results

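The core planar cell polarity (PCP) genes were followed in bulk RNA-Seq of mouse embryonic lungs. They are Vangl1, Vangl2, Celsr1, Celsr2, Celsr3, Fzd3, Fzd6, Prickle1, Prickle2 and Prickle3, 10 of the 23420 genes listed in each of 3 deposited tables. They were taken by their symbols as known components of the pathway. All 10 members passed the filter on low values (10 or more normalized counts in 3 or more libraries of a table) and were tested in all 3 experiments.

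Each experiment had 3 control and 3 mutant libraries, 18 in all. In the Vangl1/2 experiment at E12.5 (embryonic day, counted from conception), the controls were labelled Vangl1-/- and the mutants Vangl1-/-; Vangl2-/-. Both groups thus carried the loss of Vangl1, which in the study is a gene-trap allele, and the labels name no Vangl2 allele in the controls. The Vangl2 null allele came from a floxed allele recombined by Sox2-Cre, so that it was lost throughout the embryo. In the second experiment at E12.5, Wnt5a f/f lungs with Dermo1Cre, which acts in the mesenchyme, were compared with Wnt5a f/+ lungs with Dermo1Cre. In the third at E13.5, Wnt5a f/f lungs with Sox9Cre, which acts in the lung epithelium from a later stage, were compared with Wnt5a f/+ lungs with Sox9Cre. The controls of both Wnt5a experiments thus carried Cre and 1 floxed allele, and no comparison shared its controls with another. The number of embryos behind each library is not given in the sources used here, so that p-values measure only the spread between these libraries.

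PCP is the alignment of cells within the plane of a tissue. In its core module, the seven-pass cadherins of the Celsr family bridge neighbouring cells, Frizzled receptors with Dishevelled take one side of a cell, and the four-pass Vangl proteins with Prickle take the opposite side. The ligand Wnt5a, acting through Ror receptors, is among the signals that orient the system, and in the lung it is linked to the placement of branches. Most of this control is known to act on where the proteins lie in the cell. RNA levels do not measure that.

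The tables gave between 15945393 and 19814346 reads on genes per library. Values are counts divided by a size factor for the library, called normalized counts here. The mutant groups were compared with their controls by limma on log2(normalized count + 1), with p-values adjusted over all genes tested and a threshold of 0.05. On this scale the fold changes of weakly detected genes are understated. In the Vangl1/2 experiment, the first principal component (51.7% of the variance) placed control replicate 2 at 17, among the mutants at 15.1 to 21.5, and the other controls at -30.1 and -44.7. The fold changes of the PCP and Frizzled genes named in that experiment are therefore given with and without it. In every table, all 16 epithelial and all 14 mesenchymal marker genes were detected, as for whole lungs. The sum of 10 cardiomyocyte markers ranged from 480.0 to 20948 normalized counts over the 18 libraries and overlapped between the groups of each experiment. Overlap does not mean balance here. The median log2 fold change of these markers was -0.63 in the Vangl1/2, -1.28 in the Dermo1Cre and -2.06 in the Sox9Cre mutants.

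The levels of the members spanned a wide range. In reads per kb of exon per 1000000 reads on genes (RPKM, computed from the recovered reads), the order in the Dermo1Cre controls was Prickle1 (9.67 ± 0.915, SD, n = 3), Celsr1 (8.68 ± 0.462), Prickle2 (6.13 ± 0.341), Fzd3 (4.84 ± 0.111), Vangl1 (4.52 ± 0.221), Fzd6 (4.36 ± 0.0368), Prickle3 (3.51 ± 0.642), Vangl2 (3.15 ± 0.211), Celsr2 (2.30 ± 0.174) and Celsr3 (0.0895 ± 0.00820). Prickle1 and Celsr1, Vangl1 and Fzd6, and Prickle3 and Vangl2 overlapped with each other in this order. Celsr3 lay far below every other member. Over the 6 group means, the ratio of the highest to the lowest level was 1.24 for Prickle3, 1.26 for Prickle1, 1.28 for Fzd6, 1.37 for Prickle2, 1.59 for Celsr1, 1.62 for Fzd3 and 1.70 for Celsr2. The 3 members with a wider range were Celsr3 (3.38), Vangl1 (3.52) and Vangl2 (4.77). The tables were normalized separately, and these ratios across them are descriptions.

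The promoters of Celsr2 and Celsr3 are shown because these related genes stood next to each other at the low end of that order, yet far apart in level. RefSeq promoters were found for 6 of the 10 members. The 250 bases before the annotated start are printed 5′ to 3′ on the strand of the gene (GRCm38.p6), with GC boxes (GGGCGG or its reverse complement CCGCCC) in capitals.
Celsr2: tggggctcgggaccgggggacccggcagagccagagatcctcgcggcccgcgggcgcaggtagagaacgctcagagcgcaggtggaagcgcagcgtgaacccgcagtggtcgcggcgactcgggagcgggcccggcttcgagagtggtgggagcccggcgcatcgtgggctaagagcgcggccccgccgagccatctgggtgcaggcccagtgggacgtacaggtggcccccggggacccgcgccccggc
Celsr3: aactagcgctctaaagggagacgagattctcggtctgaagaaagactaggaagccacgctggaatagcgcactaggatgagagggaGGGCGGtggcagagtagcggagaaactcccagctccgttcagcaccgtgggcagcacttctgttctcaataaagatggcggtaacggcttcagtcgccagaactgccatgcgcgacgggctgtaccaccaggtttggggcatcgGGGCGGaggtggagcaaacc

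The Celsr2 window lies at chr3:108415580-108415829 on the minus strand, holds no GC box and is 75.2% G and C. The Celsr3 window lies at chr9:108825795-108826044 on the plus strand, holds 2 GC boxes and is 58.0% G and C. Neither overlaps an exon annotated by GENCODE. Of 32851 mouse windows of this length, 32.7% hold a GC box, and the median content of G and C is 52.4%. These matches describe the letters only.

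**Figure D1:**
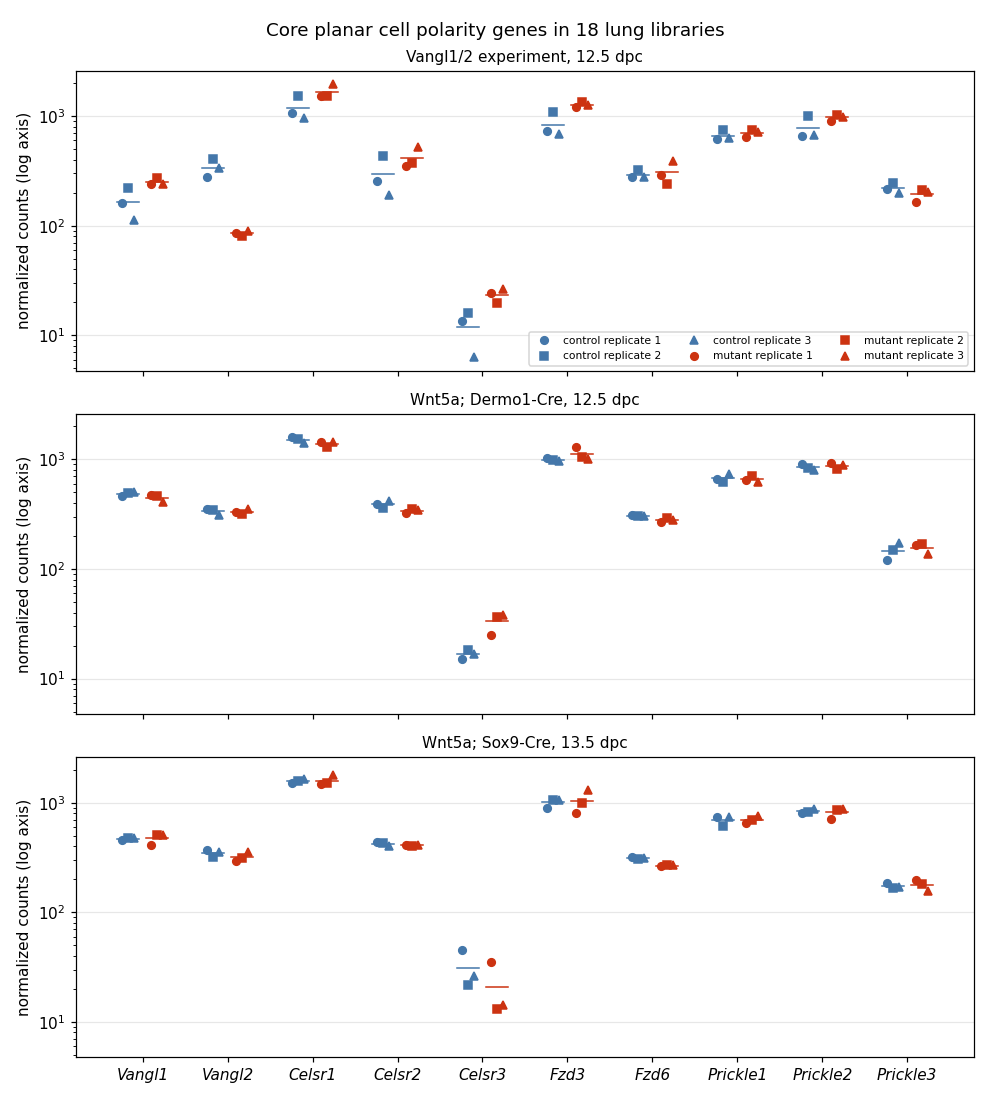
Normalized counts (log axis) of the 10 core PCP genes in each library of the 3 experiments, with controls in blue, mutants in red, a marker shape for each replicate number and a bar at the group mean. Vangl2 stands apart in the Vangl1/2 mutants (79.8 to 89.6 against 277 to 406), and Celsr3 is the lowest member everywhere.

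With all libraries, Vangl2 was the one core PCP gene that passed the threshold in the Vangl1/2 experiment, with a large fall. Vangl2 (chr1:172000960-172028444, minus strand) encodes the four-pass membrane protein that was targeted in these embryos. It had 277, 406 and 334 normalized counts in control replicates 1 to 3 and 86.5, 79.8 and 89.6 in the mutants. All mutants lay far below all controls, and they were close to one another. Vangl2 RNA fell to 25.2% of the control mean (339 ± 64.9 against 85.3 ± 5.01, SD, n = 3), a log2 fold change of -1.96 (SE 0.17, 95% interval -2.35 to -1.58, adjusted p = 0.0318 by limma). It was 1 of 10 members called, against 0.00699% of all 14303 genes tested, and it was the single gene that limma called in the whole table (edgeR 1, DESeq2 20). The adjusted p moved with the libraries in the fit: it lay between 0.0526 and 0.344 when any library other than control replicate 2 was left out, and was 5.72e-05 without control replicate 2, while the log2 fold change stayed between -2.10 and -1.82. The table gives 1 value per gene, and which exons held the remaining reads was not analysed here.

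Vangl1 (chr3:102153583-102204693, minus strand), the paralog of Vangl2, was disrupted by a gene trap in both groups of this experiment. Reads on the gene were still present. The controls had 162, 219 and 113 normalized counts and the mutants 239, 274 and 242. Every mutant was above every control, with a log2 fold change of 0.65 (SE 0.23, 95% interval 0.13 to 1.18), which did not pass the test over all genes (adjusted p = 0.233 by limma). Without control replicate 2 it was 0.88 (adjusted p = 0.00211), and with the trend on gene length removed from each library it was 0.35 (adjusted p = 0.581). Reads of the trapped and of a normal transcript cannot be told apart in a table of genes.

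Vangl1 and Vangl2 have almost the same exon length (6.67 and 6.65 kb), so their share of the pair could be read directly. Vangl2 made up 63.1%, 65.1% and 74.7% of Vangl reads per kb in the Vangl1/2 controls and 26.7%, 22.6% and 27.1% in the mutants. In the Dermo1Cre experiment its share was 41.1% ± 2.73 in controls and 42.9% ± 2.92 in mutants, and in the Sox9Cre experiment 42.5% ± 2.22 and 40.6% ± 1.82 (SD, n = 3). In both Wnt5a experiments the shares of mutants and controls overlapped. Set side by side, Vangl1 stood at 1.28 ± 0.471 RPKM in the Vangl1/2 controls and at 4.52 ± 0.221 in the Dermo1Cre controls of the same stage, but the trap, the strain and the table differ together and cannot be told apart.

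**Figure D2:**
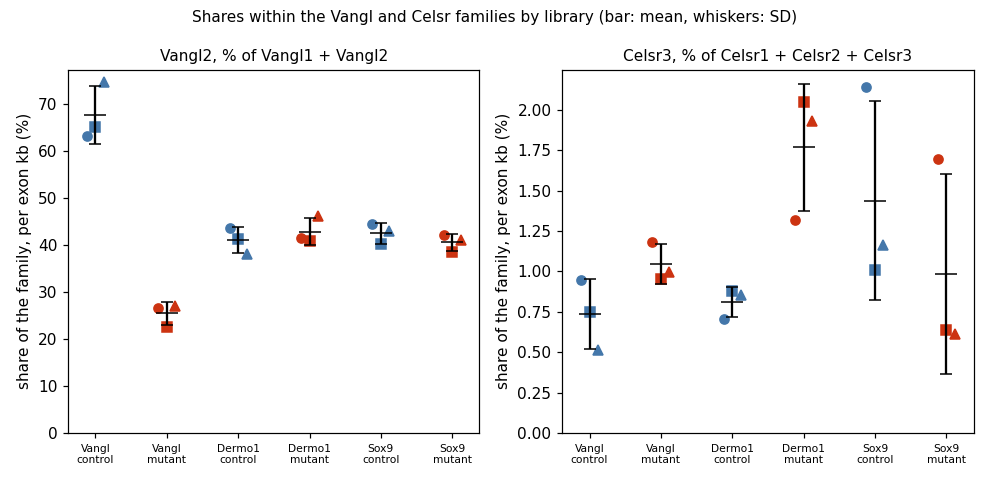
Share of Vangl2 among Vangl reads (left) and of Celsr3 among Celsr reads (right), per exon kb and in percent, for each library (blue, control; red, mutant; shapes, replicate numbers), with the mean and SD. The Vangl2 share is 63.1% or more in the Vangl1/2 controls and 27.1% or less in the Vangl1/2 mutants, and the Celsr3 share is higher in all 3 Dermo1Cre mutants than in their controls.

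The Celsr cadherins, which couple PCP across cell borders, had higher means in the Vangl1/2 mutants, but none passed the test. Celsr1 (chr15:85898929-86033777, minus strand) had 1058, 1533 and 954 normalized counts in the controls and 1537, 1543 and 1949 in the mutants. Its mutants were all above its controls, though replicate 1 of the mutants exceeded control replicate 2 by little. The log2 fold change was 0.53 (SE 0.18, adjusted p = 0.233 by limma). Celsr2 (chr3:108390851-108415552, minus strand) had 258, 435 and 190.2 in the controls and 348, 371 and 519 in the mutants. Here the groups overlapped, through control replicate 2 (log2 fold change 0.55, SE 0.29, adjusted p = 0.295 by limma). Celsr3 (chr9:108826320-108852969, plus strand), which is best known from neurons, had 13.4, 15.8 and 6.31 in the controls and 24.2, 19.7 and 26.6 in the mutants. These groups did not overlap (log2 fold change 1.01, SE 0.38, 95% interval 0.13 to 1.88, adjusted p = 0.233 by limma), at a low depth of 6 to 27 reads per library.

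Of the Frizzled receptors of the core module, Fzd3 was separated between the groups and Fzd6 was not. Fzd3 (chr14:65192449-65262463, minus strand) had 739, 1086 and 684 normalized counts in the Vangl1/2 controls and 1212, 1349 and 1269 in the mutants. No mutant overlapped a control, and its unadjusted p of 0.00539 was the smallest after that of Vangl2 among the members (log2 fold change 0.64, SE 0.17, adjusted p = 0.233 by limma). Fzd6 (chr15:39006034-39038188, plus strand) had 278, 323 and 277 in the controls and 291, 242 and 387 in the mutants. The controls lay within the range of the mutants (log2 fold change 0.043, 95% interval -0.37 to 0.46, adjusted p = 0.897 by limma).

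The Prickle genes encode the cytoplasmic partners of Vangl. Prickle1 (chr15:93499114-93595891, minus strand) had 615, 739.9 and 631 normalized counts in the controls and 649, 746 and 722 in the mutants. Prickle2 (chr6:92370908-92706155, minus strand) had 655, 998 and 672 in the controls and 908, 1033 and 987 in the mutants. Prickle3 (chrX:7657260-7668186, plus strand) had 217, 244 and 199 in the controls and 165, 212 and 205 in the mutants. All 3 overlapped between the groups. The log2 fold changes were 0.095 for Prickle1 (adjusted p = 0.624 by limma), 0.36 for Prickle2 (0.257) and -0.18 for Prickle3 (0.469). Their 95% intervals, -0.17 to 0.36, -0.025 to 0.74 and -0.53 to 0.16, leave room for a moderate change in each.

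Counted together, 4 members were higher and 1 was lower in the Vangl1/2 mutants without overlap between the groups, where 13.6% and 8.68% of all genes tested did so (22.3% in either direction). By an unadjusted p under 0.05 it was the same count, 4 higher and 1 lower, against 20.5% of all genes in either direction. The median log2 fold change of the 10 members was 0.44, against -0.0093 over all genes tested, and 0.64 without control replicate 2. Fold changes in this experiment moved with the length of the gene: over 13413 genes with a length, the Spearman correlation of fold change and length was 0.702, a description across genes, and the longest 10% (from 7.24 kb of exons) had a median log2 fold change of 0.44. Celsr1, Celsr2, Celsr3, Fzd3 and Prickle2 belong to these with 8.63 to 12.73 kb, while Fzd6, Prickle1 and Prickle3 have 2.62 to 4.38 kb. When the dependence on length was taken out of every library, Celsr1 stood at 0.040, Celsr2 at 0.070, Fzd3 at 0.11 and Prickle2 at -0.052, and the median of the 10 members was 0.020. Celsr3 was at 0.50 (adjusted p = 0.662). Vangl2 was then at -2.27 (95% interval -2.56 to -1.97, adjusted p = 0.000441) and again the single member called, where 0.00746% of the genes with a length were called.

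Leaving out a control moved these values in either direction. Without control replicate 3, Vangl1 was at 0.41, Celsr1 at 0.39, Celsr2 at 0.28, Celsr3 at 0.64, Fzd3 at 0.51 and Prickle2 at 0.27, and without control replicate 1 they were at 0.67, 0.46, 0.50, 1.13, 0.56 and 0.25. None of these was called. Without control replicate 2, 6 members were called higher (Vangl1, Celsr1, Celsr2, Celsr3, Fzd3 and Prickle2) and Vangl2 lower, but 43.2% of all genes tested were called in that fit. The log2 fold changes were then 0.73 for Celsr1, 0.87 for Celsr2, 1.24 for Celsr3, 0.84 for Fzd3 and 0.55 for Prickle2, with adjusted p-values between 8.12e-05 and 0.0300 by limma. Fzd6 was at 0.12, Prickle1 at 0.18 and Prickle3 at -0.11, which were not called. The members called higher beside Vangl1 were the 5 with the longest exons. The part of gene length and of the single control libraries in these values was not tested.

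**Figure D3:**
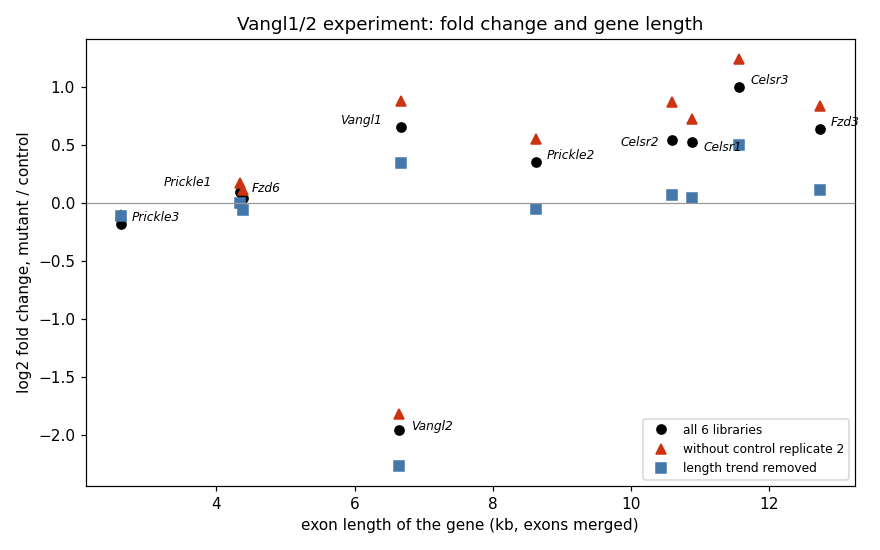
Log2 fold change (mutant over control) of each core PCP gene in the Vangl1/2 experiment against its exon length in kb, with all 6 libraries (black circles), without control replicate 2 (red triangles) and with the length trend removed (blue squares). Members above 8 kb lie above 0 with all libraries and near 0 once the trend is removed, except Celsr3 at 0.50, while Vangl2 is at -1.82 or lower throughout.

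With Wnt5a targeted in the mesenchyme, no core PCP gene passed the threshold, and Celsr3 had the widest difference. The targeted gene itself was measured first. Wnt5a had 472, 430 and 489 normalized counts in the Dermo1Cre controls and 317, 436 and 230 in the mutants. Replicate 2 of the mutants lay among the controls, so the difference was uneven (log2 fold change -0.55, SE 0.19, adjusted p = 0.406 by limma). The excised exons cannot be seen in a value per gene, and the controls already carried 1 floxed allele. Of the 14277 genes tested, 0.014% were called, 2 by limma and 2 by edgeR, while DESeq2 called 100 and no member.

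Neither Vangl gene was separated between the Dermo1Cre groups. Vangl2 had 355, 346 and 308 normalized counts in the controls and 334, 319 and 351 in the mutants, a log2 fold change of -0.0061 with a 95% interval from -0.19 to 0.18. Vangl1 had 460, 493 and 500.4 in the controls and 473, 461 and 410.4 in the mutants (log2 fold change -0.11, 95% interval -0.28 to 0.054). Both overlapped. These intervals describe the difference in whole lungs, not in one compartment. In this experiment the Spearman correlation of fold change and length was 0.251 over 13397 genes. With the length trend removed, Vangl2 was at -0.081 (95% interval -0.28 to 0.12). Vangl1 was then at -0.19 (95% interval -0.35 to -0.023), below 0 but not called (adjusted p = 0.518 by limma).

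Celsr3 was the member with the lowest level here as well. It had 15.0, 18.1 and 16.8 normalized counts in the controls and 25.2, 36.7 and 37.9 in the mutants. All mutants were above all controls, with a mean of 33.3 ± 7.03 against 16.6 ± 1.53 (SD, n = 3). The log2 fold change of 0.94 (SE 0.26, 95% interval 0.35 to 1.53) had an unadjusted p of 0.00524 and an adjusted p of 0.322 by limma, and the groups of 7.65% of all genes tested were separated in that direction. Its share of Celsr reads per kb was 0.703% to 0.876% in the controls and 1.32% to 2.05% in the mutants. Leaving out any library kept the log2 fold change between 0.84 and 1.12, and with the length trend removed it was 0.82.

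Markers of neurons were higher beside Celsr3 in the Dermo1Cre mutants. The sum of 12 neuron genes was 1864, 1851 and 2105 normalized counts in the Dermo1Cre controls and 2815, 4258 and 4427 in the mutants. Of the 12 genes, 9 were higher and 1 was lower without overlap, against 7.65% and 7.92% of all genes tested. Their median log2 fold change was 1.23. All 12 were detected in every table. In the Vangl1/2 experiment the same sum was 1580 to 2715 in the controls and 3062 to 3580 in the mutants. Celsr3 was again higher in the mutants. However, 1 of the 12 genes was higher without overlap there, against 13.6% of all genes tested, and the median log2 fold change was 0.49. In the Sox9Cre experiment the sum was 2880 to 3491 in the controls and 3327, 1996 and 2287 in the mutants. Both the sum and Celsr3 were lowest in mutant replicates 2 and 3. Among the controls the sum was highest in replicate 3 (3491) and Celsr3 in replicate 1 (45.6). The part of neurons in the Celsr3 values was not tested. In bulk tissue, fewer cells of a type and less RNA per cell cannot be told apart.

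**Figure D4:**
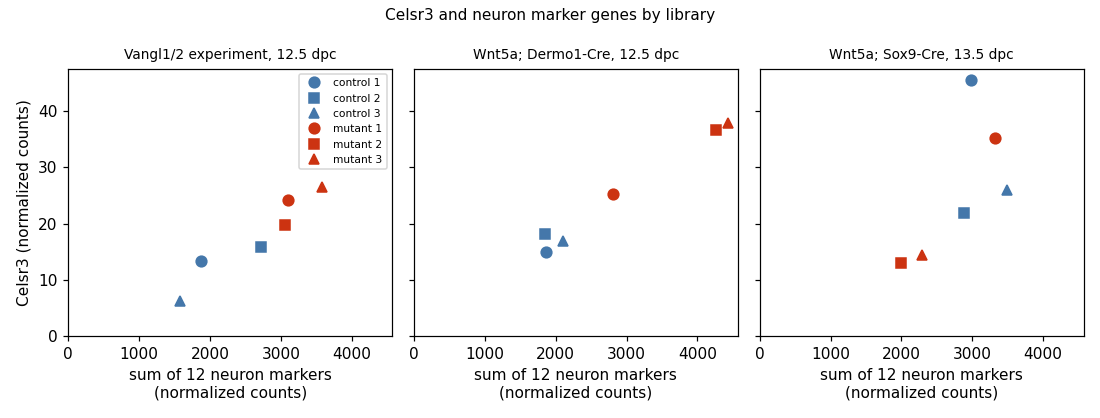
Celsr3 against the summed normalized counts of 12 neuron marker genes in each library of the 3 experiments (blue, control; red, mutant; shapes, replicate numbers). In the Dermo1Cre experiment both are highest in mutant replicates 2 and 3, and in the Sox9Cre experiment both are lowest in mutant replicates 2 and 3.

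The other cadherins were not higher in the Dermo1Cre mutants. Celsr2 had 396, 362 and 416 normalized counts in the controls and 325, 349 and 349 in the mutants. All mutants were lower (log2 fold change -0.20, SE 0.078, unadjusted p = 0.0299, adjusted p = 0.449 by limma). Celsr1 had 1589, 1550 and 1416 in the controls and 1437, 1290.1 and 1454 in the mutants, which overlapped (log2 fold change -0.12, adjusted p = 0.527 by limma). Celsr3 thus differed in sign from both of its relatives in this experiment.

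The estimates of the Frizzled receptors had opposite signs, but neither passed the test and both 95% intervals included 0. Fzd6 had 309, 306 and 307 normalized counts in the Dermo1Cre controls and 269, 293 and 279.6 in the mutants. The controls were nearly identical and all mutants lay below them (log2 fold change -0.13, 95% interval -0.30 to 0.034, adjusted p = 0.571 by limma). Fzd3 had 1021, 985 and 969 in the controls and 1303, 1050.0 and 1019 in the mutants. Here the highest value came from mutant replicate 1, and the groups touched (log2 fold change 0.17, 95% interval -0.020 to 0.36, adjusted p = 0.522 by limma). With the length trend removed, Fzd3 was at 0.048 (95% interval -0.13 to 0.23) and Fzd6 at -0.16 (-0.33 to 0.017).

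The Prickle genes overlapped between the Dermo1Cre groups. Prickle1 had 627 to 741 normalized counts in the controls and 626 to 713 in the mutants. Prickle2 had 809 to 908 and 821 to 922, and Prickle3 had 120.2 to 172 and 137 to 168. The log2 fold change was -0.026 for Prickle1, 0.045 for Prickle2 and 0.097 for Prickle3, and the adjusted p lay between 0.836 and 0.921 by limma. In all, 1 member was higher and 2 were lower without overlap in the Dermo1Cre mutants, where 7.65% and 7.92% of all genes tested were so separated (15.6% in either direction). At an unadjusted p under 0.05 they were Celsr3 and Celsr2, 2 of 10 against 10.2% of all genes. The median log2 fold change of the members was -0.016, against 0.00070 over all genes tested.

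With Wnt5a targeted in the epithelium, at E13.5, no core PCP gene passed the threshold either, and Fzd6 alone among them was separated between the groups. Wnt5a had 473, 453 and 426 normalized counts in the Sox9Cre controls and 442, 362 and 448 in the mutants, which overlapped (log2 fold change -0.12, SE 0.097, adjusted p = 0.9999 by limma). No gene of the 14293 tested was called (0% of them), with 3.9% at an unadjusted p under 0.05. DESeq2 on recovered reads called 9 and edgeR 0.

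Fzd6 is the Frizzled receptor known for the orientation of hair follicles. It had 321, 308 and 314 normalized counts in the Sox9Cre controls and 264, 269 and 268 in the mutants. The 3 mutants lay within a few counts of each other, below every control. The mean was 314 ± 6.74 against 267 ± 2.13 (SD, n = 3), a log2 fold change of -0.24 (SE 0.073, 95% interval -0.40 to -0.069, unadjusted p = 0.0111, adjusted p = 0.9999 by limma). The groups of 4.36% of all genes tested were separated in this direction, of 4.42% in the other and of 8.78% in either. It was the 1 of 10 members so separated, near the share in either direction. Fzd6 was also lower without overlap in the Dermo1Cre mutants, as were 7.92% of all genes tested there. It passed the test in neither experiment, and the share of all genes lower in both was not counted. In the Dermo1Cre experiment the sum of 16 epithelial marker genes was 25734 to 26182 normalized counts in the mutants and 27048 to 28710 in the controls. Of these, 7 of 16 were lower and 0 were higher without overlap, against 7.92% and 7.65% of all genes tested. The sum of 14 mesenchymal markers there was 112272 to 125349 against 124758 to 141120, which overlapped. Of the single mesenchymal genes, 4 of 14 were lower and 0 higher without overlap. In the Sox9Cre experiment the epithelial sum overlapped (25812 to 27540 against 25938 to 27634). There, 0 of 16 were lower and 1 was higher without overlap. The sum of 8 endothelial markers was lower without overlap (13420 to 13972 against 13984 to 14173), with 2 of 8 genes lower. So was that of 6 mesothelial markers (2746 to 3400 against 3416 to 4027), with 2 of 6 lower. The sums of the other cell types overlapped. The part of cell types in the Fzd6 values was not tested.

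The remaining members overlapped in the Sox9Cre experiment. Vangl2 had 367, 319.6 and 354 normalized counts in the controls and 296, 314 and 355 in the mutants (log2 fold change -0.11, 95% interval -0.33 to 0.11). Vangl1 had 458, 478 and 473 and 409, 502 and 508 (log2 fold change 0.0041, 95% interval -0.21 to 0.22). Of the Vangl2 mutants, replicates 1 and 2 lay below every control, and of the Vangl1 mutants replicate 1 lay below and replicates 2 and 3 above.

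Celsr3 was spread widely among the Sox9Cre libraries. It had 45.6, 21.9 and 25.9 normalized counts in the controls and 35.1, 13.1 and 14.4 in the mutants. Replicate 1 was the highest of both groups, and the 95% interval of the log2 fold change ran from -1.60 to 0.35. Celsr1 ranged from 1506 to 1650.0 in the controls and from 1491 to 1771 in the mutants, and Celsr2 from 405 to 441 and from 400.3 to 413. Their log2 fold changes were 0.0042 and -0.055.

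Fzd3 and the Prickle genes also overlapped. Fzd3 had 892 to 1062 normalized counts in the Sox9Cre controls and 811 to 1299 in the mutants (log2 fold change 0.022, 95% interval -0.33 to 0.38). Prickle1 had 607 to 746 and 655 to 749, Prickle2 had 809 to 882 and 712 to 882, and Prickle3 had 167 to 185 and 156 to 195. Their log2 fold changes lay between -0.041 and 0.017, and the median over the 10 members was -0.018, against 0.0013 over all genes tested.

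**Figure D5:**
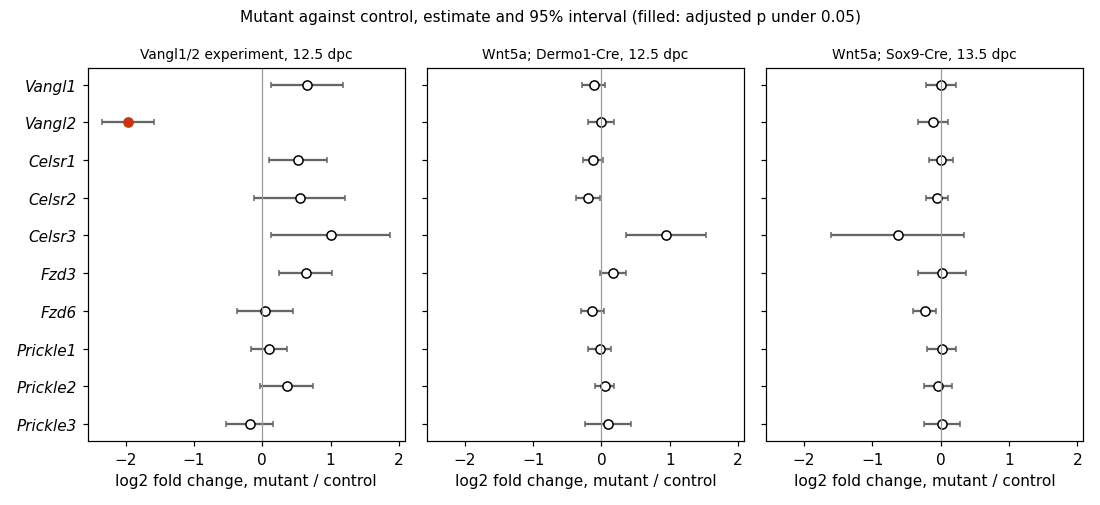
Log2 fold change (mutant over control) of each core PCP gene with its 95% interval in the 3 experiments. The filled point is Vangl2 in the Vangl1/2 experiment at -1.96, the one estimate with an adjusted p under 0.05, and the intervals are narrower in the Wnt5a experiments for most members.

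Shares within the families varied more in some than in others. Celsr1 made up between 77.3% and 79.5% of Celsr reads per kb in all 6 group means. Prickle1 made up 46.5% to 50.03% of Prickle reads. The Fzd3 share of the pair Fzd3 and Fzd6 was 49.1% ± 4.01 in the Vangl1/2 controls (45.9% to 53.6%) and 59.2% ± 6.34 in the mutants (53.02% to 65.7%), which overlapped through control replicate 2. It was 52.6% ± 0.596 in the Dermo1Cre controls and 57.8% ± 4.07 in the mutants, with all mutants (55.2% to 62.5%) above all controls (52.1% to 53.2%). In the Sox9Cre experiment it was 52.3% ± 2.96 and 56.6% ± 5.63 (SD, n = 3), which overlapped. Fzd3 has 12.73 kb of exons and Fzd6 4.38 kb, and the shares were not corrected for the length trend. With that trend removed, the log2 fold changes of Fzd3 and Fzd6 were 0.11 and -0.057 in the Vangl1/2 experiment. In the Dermo1Cre experiment they were 0.048 and -0.16. These shares, and the part of gene length in them, were not tested.

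The genes that surround the core module were taken as a further list of 41 ligands, co-receptors, Dishevelled and effector genes, of which 39 were tested. With all libraries, none was called in any experiment. At an unadjusted p under 0.05, 11 were higher and 1 was lower in the Vangl1/2 mutants (12% and 8.56% of all genes), 1 and 2 in the Dermo1Cre mutants (5.42% and 4.76%), and 0 and 1 in the Sox9Cre mutants (1.08% and 2.81%). The median log2 fold changes were 0.17, -0.013 and -0.022, and that of the Vangl1/2 experiment was 0.0024 with the length trend removed. Without control replicate 2 it was 0.27, and 19 genes were called higher and 3 lower, in the fit that called 43.2% of all genes.

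Ror1 in the Vangl1/2 experiment, and Ror2 and Daam2 in the Dermo1Cre experiment, were among the 3 genes of the list with the smallest p. Ror1, a receptor tyrosine kinase that binds Wnt5a, had 909, 1315 and 824 normalized counts in the Vangl1/2 controls and 1661, 1584 and 1577 in the mutants. The groups were separated (log2 fold change 0.69, SE 0.17, unadjusted p = 0.00312, adjusted p = 0.233 by limma), and the value was 0.89 without control replicate 2 and 0.45 with the length trend removed. Its relative Ror2 had 803, 781 and 775 in the Dermo1Cre controls and 689, 721 and 730.0 in the mutants. All mutants were lower, by a log2 fold change of -0.14 (SE 0.052, adjusted p = 0.427 by limma). Daam2, a formin that acts below Dishevelled, was higher without overlap in the same mutants, by 0.15 (SE 0.049, adjusted p = 0.403 by limma).

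The other genes with the smallest p were a kinase, glypicans, a ligand and a regulator of Dishevelled. Rock1, a kinase that activates myosin, and the glypican Gpc6 had log2 fold changes of 0.44 and 0.62 in the Vangl1/2 mutants (adjusted p = 0.233 for each by limma), 0.57 and 0.84 without control replicate 2, and 0.15 and 0.59 with the length trend removed. In the Sox9Cre mutants the glypican Gpc4 was at -0.24, the ligand Wnt11 at -0.21 and the Dishevelled-binding Dact1 at -0.14 (adjusted p = 0.9999 for each by limma).

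With all libraries, the other 8 Frizzled receptors gave no call by limma either. Without control replicate 2, 4 of the 8 were called higher in the Vangl1/2 mutants, again in the fit that called 43.2% of all genes. At an unadjusted p under 0.05 with all libraries, 2 were higher in the Vangl1/2 mutants (12% of all genes), 0 differed in the Dermo1Cre mutants (10.2% in either direction) and 1 was higher in the Sox9Cre mutants (1.08%). In the Vangl1/2 mutants Fzd7 was at 0.40, Fzd4 at 0.57 and Fzd5 at 0.49 on the log2 scale, with adjusted p-values from 0.233 to 0.250 by limma. They were at 0.53, 0.86 and 0.73 without control replicate 2, and at 0.28, 0.26 and 0.17 with the length trend removed. In the Dermo1Cre mutants Fzd4, Fzd2 and Fzd8 were at 0.18, -0.091 and -0.13. Fzd9 had 12.9, 11.9 and 17.96 normalized counts in the Sox9Cre controls and 38.1, 20.1 and 23.6 in the mutants. Its groups were separated at a low level (log2 fold change 0.86, SE 0.32, adjusted p = 0.9999 by limma). In the same experiment Fzd5 was lower without overlap, at -0.18, and Fzd7 was at -0.062.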

How the data were processed

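Lungs were frozen, RNA was extracted with a column kit and Illumina libraries were sequenced. The submitters' processing notes name Trim Galore, HISAT2, featureCounts, DESeq2 and mm10, without versions or roles. The deposited values per library are a signal, made by the authors from read counts per gene with a scaling factor for each library of a table. The authors also deposited a mean, log2 fold changes and p-values of their own comparison, which were not used. Divided by the smallest step of their library, 100% of the values were whole numbers to within 3.7e-05, so that reads could be recovered. The tables hold no strand or transcript detail.

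A pseudocount of 1 was added, and genes reaching 10 normalized counts in 3 or more libraries were tested within each table by limma (version 3.58.1, R 4.3.3) with a mean-variance trend and Benjamini-Hochberg adjustment at 0.05. For single genes, 3 against 3 libraries cannot give an exact permutation p below 0.1. edgeR (4.0.16) and DESeq2 (1.42.0) on recovered reads, TMM scaling, other pseudocounts and filters, removal of each library's trend (spline with 5 degrees of freedom) on exon length, a replicate block and leaving out each library were alternatives. Exon lengths and positions came from GENCODE on GRCm38 (92.68% of names matched), and promoters from RefSeq. The fit was tested on simulated data. No libraries were duplicates, and the labels do not say whether the replicate numbers pair the samples.

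The members and lists were chosen with earlier results of these data known. Named beside the 10 members and Wnt5a are the called genes and the 3 with the smallest p in the lists of other PCP genes and other Frizzled receptors, and the 3 genes most like Vangl2 in pattern over 18 libraries. Dchs2 and Prickle4 were not found by symbol among the genes listed in any experiment and were not analysed here. Figures were drawn with matplotlib (3.10.9, Python 3.11.15).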

Additional observations from a re-analysis of the deposited data

How the results depend on the processing

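In the Vangl1/2 experiment 1 core PCP gene was called, 0 with the replicate block (Vangl2 at an adjusted p of 0.0847), and 0 to 7 when each library was left out in turn, the 7 without control replicate 2. Of the other PCP genes 0 were called, and 0 to 22 when each library was left out, the 22 without control replicate 2. The cause was not tested. edgeR, DESeq2, TMM scaling, both pseudocounts, both filters and removal of the length trend, alone or with the block, each called Vangl2 alone among the members. In the Wnt5a experiments no setting called a member or another PCP gene. Same-numbered libraries correlated at 0.013 to 0.303 in the Vangl1/2, -0.223 to 0.073 in the Dermo1Cre and -0.12 to 0.132 in the Sox9Cre experiment. In the Vangl1/2 experiment the r of 0.303 for replicate 1 was the highest of any control with any mutant. These values do not settle whether the numbers pair the libraries. The block changed no other call among the members and other PCP genes. Over all genes tested it called 16 in the Dermo1Cre experiment, against 2 without it.

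Small differences turned sign. With the length trend removed, alone or with the replicate block, the log2 fold changes were -0.057 for Fzd6, -0.00090 for Prickle1 and -0.052 for Prickle2 in the Vangl1/2 experiment, -0.055 for Prickle2 in the Dermo1Cre experiment, and 0.0071 for Celsr2 and 0.0086 for Prickle2 in the Sox9Cre experiment. Leaving out each library gave -0.14 to 0.20 for Fzd6 in the Vangl1/2 experiment. In the Dermo1Cre experiment it gave -0.068 to 0.034 for Vangl2, -0.080 to 0.042 for Prickle1 and -0.042 to 0.22 for Prickle3. In the Sox9Cre experiment it gave -0.051 to 0.11 for Vangl1, -0.076 to 0.048 for Celsr1, -0.16 to 0.18 for Fzd3, -0.084 to 0.065 for Prickle1, -0.10 to 0.053 for Prickle2 and -0.057 to 0.11 for Prickle3. Celsr3 rests on few reads per library (6 to 46), which limits its precision.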

Other observations

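The genes whose pattern was most like that of Vangl2 were named by the Pearson correlation of their values, centred on the controls of each table, over 18 libraries and 13977 genes. They were Gas5 (r = 0.94), a host gene of small nucleolar RNAs, 6330418K02Rik (r = 0.89) and Mutyh (r = 0.87), which encodes a DNA glycosylase. Their log2 fold changes in the Vangl1/2 mutants were -1.01, -0.89 and -0.50 (adjusted p = 0.233 for each by limma). In the Wnt5a experiments they lay between -0.097 and 0.14. The correlation is a description, since the libraries share their tables and the 3 Vangl1/2 mutants set most of the range of Vangl2.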
